A study of Mus musculus with 7 samples.

Results

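The RNA sensing and interferon response genes were examined in muscle stem cells (MuSCs) sorted by Gli1 reporter. They are 38 mouse genes chosen by function, from the cytosolic RNA sensors to their adaptors, transcription factors, receptors, induced effectors and the antigen presentation genes that interferons raise. The count table held 37 of the 38 among its 13280 genes, and Mx1, an interferon-induced GTPase, was not analysed here. Of the 37, 36 had a read in at least 1 library and 33 had the 5 reads in 2 libraries that were required for testing. RNA-seq was available for 7 libraries. Gli1+ MuSCs (4 libraries) were the tdT+ cells of Gli1-CreERT2; R26-tdT mice, and Gli1- MuSCs (3 libraries) were the tdT- cells. Both came from adult mice with the same alleles (C57BL/6 in the labels, a mixed C57BL6/129 background in the methods), sorted 3 days after tamoxifen (TAM), so the Cre and the drug were shared by both groups. The Cre is driven by Gli1, a transcriptional target of Hedgehog signaling, and marks a cell only if recombination occurred, so a Gli1- cell is one without the reporter. The methods call the replicates biological, and the labels do not say whether libraries came from separate animals, so the p-values measure the spread between these libraries, of which a part may be technical.

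Cells detect viral or misplaced RNA through helicases in the cytosol. On binding double-stranded RNA these signal through an adaptor on mitochondria, which activates the transcription factors that switch on type I interferon genes. Secreted interferon then acts through cell-surface receptors, and a complex that holds Stat2 and Irf9 binds interferon-stimulated response elements (ISREs) in the promoters of antiviral genes, while interferon gamma acts at gamma-activated sites (GAS). Stem cells of several tissues are known to transcribe part of this effector set without infection.

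Promoter windows were looked up for the members to show which carry these motifs. RefSeq windows of 300 bases (250 before and 50 after the start, build GRCm38.p6) were found for 32 of the 38. An ISRE core was searched as TTTC, any 2 bases and TTTC on both strands, and a GAS core as TTCNNNGAA, which reads the same on both strands. The ISRE core was in the windows of 13 of these 32 members (40.6%), against 3.99% of all 27025 genes with a window, and the GAS core also in 13 (40.6%), against 9.55% of all genes. Both motifs were present in 5 members, Bst2, Eif2ak2, Ifitm3, Irf2 and Oas1a, and in Bst2 and Ifitm3 a match of one overlapped a match of the other. Neither motif was found in 11. Of the 11 tested members with an ISRE core, 9 had a fold change above 0, as had 9 of the 12 with a GAS core and 9 of the 11 with neither motif, beside 65.3% of all genes. The sequences below, 5′ to 3′ on the strand of the gene with the motif in capitals, are those of the sensor whose groups stood apart (Ifih1), a pair with several ISRE cores close to the start (Isg15, Ifit1), the most abundant member per length (B2m) and the most abundant transcription factor, with a GAS core (Irf1). A match is a stretch of letters and was not tested as a binding site.
Ifih1 (chr2:62646206-62646233, minus strand, bases 22 to 49 after the start): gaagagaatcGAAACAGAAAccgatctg
Isg15 (chr4:156200819-156200938, minus strand, the 120 bases before the start, 3 overlapping ISRE cores): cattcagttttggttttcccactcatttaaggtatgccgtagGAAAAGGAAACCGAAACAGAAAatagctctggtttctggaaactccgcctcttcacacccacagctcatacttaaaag
Ifit1 (chr19:34640769-34640888, plus strand, the 120 bases before the start, 2 ISRE cores): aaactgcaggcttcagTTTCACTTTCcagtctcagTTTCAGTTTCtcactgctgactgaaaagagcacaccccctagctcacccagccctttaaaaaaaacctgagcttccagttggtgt
B2m (chr2:122147537-122147656, plus strand, bases 150 to 31 before the start): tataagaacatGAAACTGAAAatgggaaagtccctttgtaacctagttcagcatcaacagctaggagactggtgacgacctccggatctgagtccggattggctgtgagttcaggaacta
Irf1 (chr11:53769894-53770013, plus strand, the 120 bases before the start, 1 GAS core): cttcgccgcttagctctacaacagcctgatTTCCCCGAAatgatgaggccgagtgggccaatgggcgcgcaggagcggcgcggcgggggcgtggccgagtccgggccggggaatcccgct

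The libraries held 10595181 to 13781283 reads in Gli1+ MuSCs and 12808512 to 19662721 reads in Gli1- MuSCs. Reads of 8579 to 10016 genes were found in Gli1+ libraries and of 10829, 5471 and 6834 genes in Gli1- replicates 1, 2 and 3, so Gli1- replicates 2 and 3 stood apart from the rest. Gli1 itself was counted at 50.3, 30.7, 7.28 and 18.3 CPM (the usual count-per-library-size unit, here on TMM-scaled library sizes) in Gli1+ replicates 1 to 4, against 11.6, 0 and 0 CPM in Gli1- replicates 1 to 3. The 12 MuSC markers summed to 5187 to 7783 CPM in Gli1+ and 5248 to 8232 CPM in Gli1- libraries, and Pax7 was read in all 7. The sort kept cells negative for CD45 (blood), CD31 (endothelium) and Sca1 (most FAPs, the fibro-adipogenic progenitors) and positive for VCAM1. The 16 macrophage and blood markers in the table summed to 0.185 to 473 CPM in Gli1+ and 26.7 to 300.5 CPM in Gli1- libraries, the 10 endothelial markers to 121 to 1374 CPM and 141 to 1194 CPM, the 12 FAP and fibroblast markers to 2985 to 11229 CPM and 3128 to 5802 CPM, and the 9 pericyte and smooth muscle markers to 1032 to 3409 CPM and 850.4 to 2188 CPM. The FAP and pericyte sums rested largely on genes read in all 7 libraries. Gsn stood at 1254 to 2819 CPM in Gli1+ and 1459 to 2292 CPM in Gli1- libraries. Col3a1 was at 996 to 4131 CPM and 881 to 1278 CPM, and Notch3 at 505 to 744 CPM and 515 to 696 CPM. By contrast, Pdgfra was read in 3 libraries, Pi16 in 4 and Lum in 5. Of the sort genes, Ptprc (CD45) had reads in Gli1+ replicate 3 alone (8.91 CPM), whereas Pecam1 (CD31) was read in all 7 libraries, at 4.51 to 334 CPM in Gli1+ and 18.6 to 434 CPM in Gli1- MuSCs, as was Ly6a (Sca1), at 13.3 to 165 CPM and 14.6 to 299 CPM. Of the 16 macrophage and blood markers, 1, 5, 12 and 7 had a read in Gli1+ replicates 1 to 4, against 4, 5 and 2 in Gli1- replicates 1 to 3. Cd74 was read in 5 libraries and Lyz2 in 4. Complement genes C1qa, C1qb and C1qc, which macrophages make, had reads in 2 or 3 Gli1+ libraries and in no Gli1- library. Other markers of the same list went the other way. S100a8 stood at 0, 65.8 and 62.7 CPM in Gli1- replicates 1 to 3, against 0.185 CPM in Gli1+ replicate 1 alone. S100a9 (8.22, 64.1 and 0 CPM) and Tyrobp (0, 16.5 and 0 CPM) were read in Gli1- libraries alone.

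Most members were transcribed in sorted MuSCs of both kinds, at low level, and the main contrast was in whether a library held a read at all. Of the 33 tested members, 31, 30, 24 and 31 had a read in Gli1+ replicates 1 to 4, against 31, 13 and 19 in Gli1- replicates 1 to 3. As shares these were 93.9%, 90.9%, 72.7% and 93.9% in Gli1+ and 93.9%, 39.4% and 57.6% in Gli1- libraries. The same shares over all 11134 genes tested were 87.0%, 84.9%, 75.1% and 83.4% in Gli1+ and 92.9%, 48.5% and 60.5% in Gli1- libraries, so the members and all genes were lowest in the same 3 libraries. Across the 231 values (33 members in 7 libraries) 52 were 0, and the 179 others had a median of 318 reads with 1 value of 10 reads or fewer. A member was therefore mostly either missing from a library or counted at far more than a few reads. In such bulk libraries fewer cells with a transcript and less RNA per cell cannot be told apart. The libraries were made from 1 ng of total RNA, and the cause of the missing values was not tested. Reads in all 7 libraries were found for 10 of the 33 members, beside 33.6% of all genes tested.

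**Figure D1:**
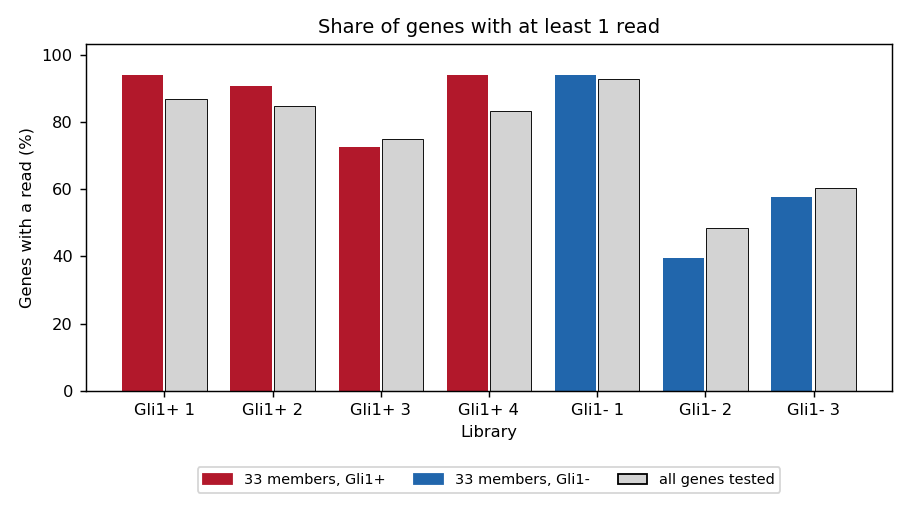
Share of genes with at least 1 read in each library, in percent, for the 33 tested members (coloured bars; Gli1+ libraries red, Gli1- libraries blue) and for all 11134 genes tested (grey bars). Gli1- replicate 2 has a read for 39.4% of the members and 48.5% of all genes.

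No member differed between Gli1+ and Gli1- MuSCs at an adjusted p under 0.05 by edgeR (quasi-likelihood fit, Benjamini-Hochberg method), and the share of all genes called was 0%. limma-voom with quality weights also called 0 members, beside 0% of all genes. DESeq2 called 1 member higher in Gli1+ MuSCs, Ifih1, and none lower, where it called 0.575% of all genes higher and 0.018% lower. Among the markers of macrophages and blood, DESeq2 called 2 higher (C1qa and C1qb) and 1 lower (S100a8) in Gli1+ MuSCs. The part of such cells in the call of Ifih1 was not tested. Before adjustment, edgeR gave p under 0.05 for 1 member with Gli1+ higher (Ifih1) and for 0 with Gli1+ lower, beside 1.53% and 0.611% of all genes. The log2 fold change was above 0 for 25 of the 33 members, where 65.3% of all genes had one above 0, and its median was 0.36 over the members and 0.30 over all genes. By role, it was above 0 for 2 of 2 sensors, 0 of 2 adaptors, 4 of 6 transcription factors, 3 of 4 receptors, 13 of 15 effectors and 3 of 4 antigen presentation genes. Without Gli1- replicates 2 and 3, 14 of the 33 were above 0, beside 47.6% of all genes, and the median was -0.13. Every Gli1+ library was above every Gli1- library for 2 members, Ifih1 and Samhd1 (2.87% of all genes), and every Gli1+ library was below for 0 (0.934% of all genes). The count of members whose groups did not overlap was 6 of 33 without Gli1- replicate 1, where it was 17% of all genes, and 5 of 33 without Gli1- replicate 2, where it was 8.59%, in either direction.

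**Figure D2:**
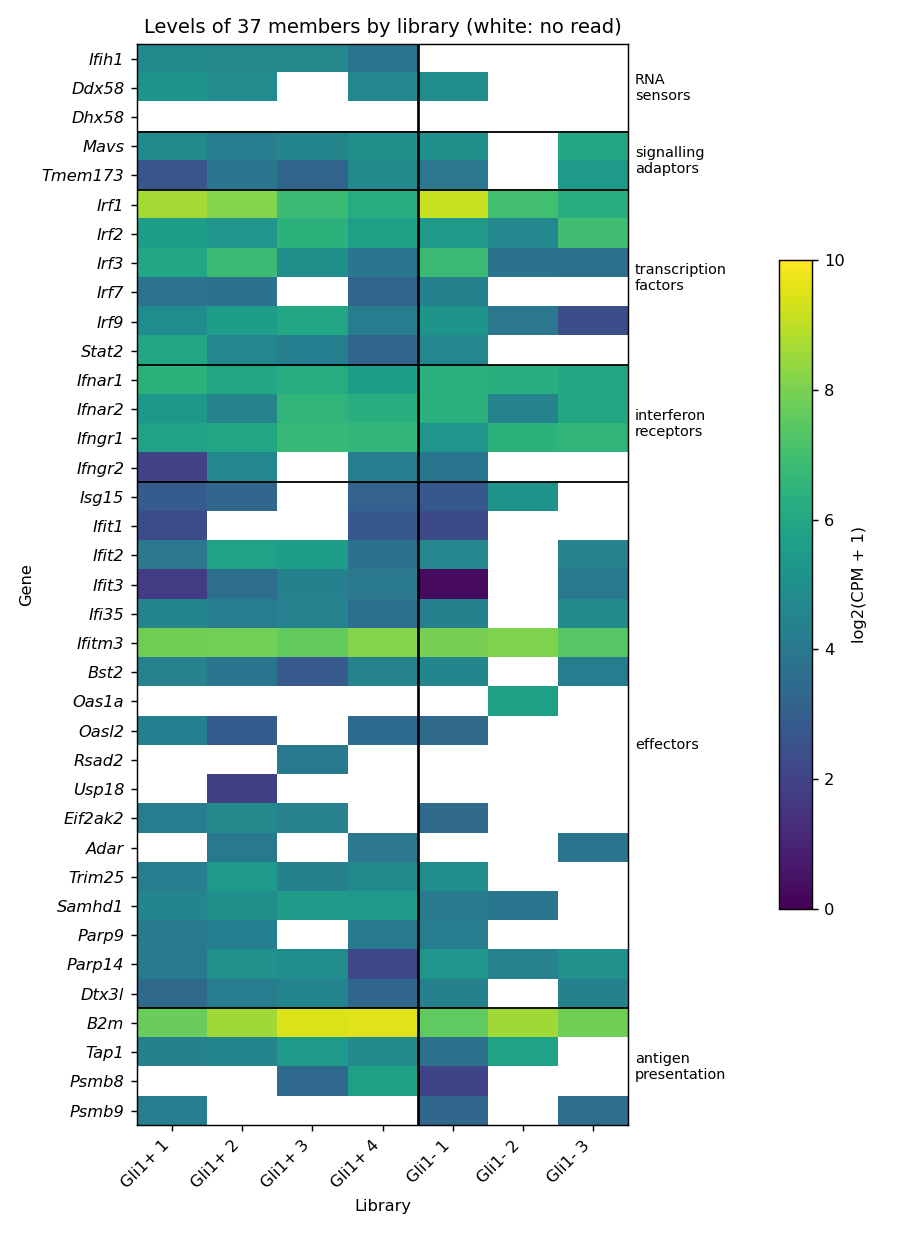
Level of the 37 members in the table as log2(CPM + 1), by role (rows) and library (columns; Gli1+ left of the line, Gli1- right), with white for no read. White cells gather in Gli1- replicates 2 and 3, and Ifih1 is the tested member with reads in all Gli1+ libraries and none in Gli1-.

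Ifih1, which encodes MDA5, the sensor of long double-stranded RNA, was read in every Gli1+ library and in no Gli1- library. It was counted at 25.7, 25.3, 25.2 and 13.7 CPM (278, 347, 277 and 136 reads) in Gli1+ replicates 1 to 4, against 0 reads in each of the 3 Gli1- libraries. The groups did not overlap, and the mean was 22.5 ± 5.86 CPM in Gli1+ MuSCs (SD, n = 4). Taking 3 reads for each Gli1- library (0.186 CPM on average), an allowance for counting error only, gave a ratio of 121 for Ifih1. This ratio is not a lower bound, because zeros also occurred beside high counts within a group. Mavs, for example, had 583, 0 and 955 reads in Gli1- replicates 1 to 3. The edgeR fit gave an unadjusted p under 0.05 and a Benjamini-Hochberg adjusted p of 1.00. The adjusted p was 2.47e-06 with DESeq2, the lowest over the alternatives, which ran up to 1.00. A gene with no read in any Gli1- library was common, at 3.83% of those tested, and 27 genes (0.243%) were, like Ifih1, read in all 4 Gli1+ libraries and in none of the Gli1- libraries. The macrophage and blood markers summed to 0.185, 49.5, 473 and 362 CPM in Gli1+ replicates 1 to 4, against 26.7, 300.5 and 76.6 CPM in Gli1- replicates 1 to 3, beside Ifih1 at 25.7, 25.3, 25.2 and 13.7 CPM and at 0. In edgeR, 3 of these markers (C1qa, C1qb and C1qc) had an unadjusted p under 0.05 with Gli1+ higher, as Ifih1 did. Another 2, S100a8 and S100a9, had one with Gli1+ lower. The part of these markers in the result was not tested. Ifih1 lies on chromosome 2 (62595798 to 62646255, GRCm38) and shares no exonic base with another gene.

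Of the related sensor genes, Ddx58 overlapped between the groups and Dhx58 could not be compared. Ddx58, which encodes RIG-I, the sensor of short RNA with a triphosphate end, was counted at 33.1, 27.3, 0 and 24.6 CPM in Gli1+ replicates 1 to 4, against 28.9, 0 and 0 CPM in Gli1- replicates 1 to 3. The highest Gli1- library was thus at the level of the Gli1+ libraries, and the log2 fold change was 1.14 ± 2.84 (SE). Dhx58, encoding LGP2, a helicase of the same family that modulates both sensors, had no read in any of the 7 libraries.

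**Figure D3:**
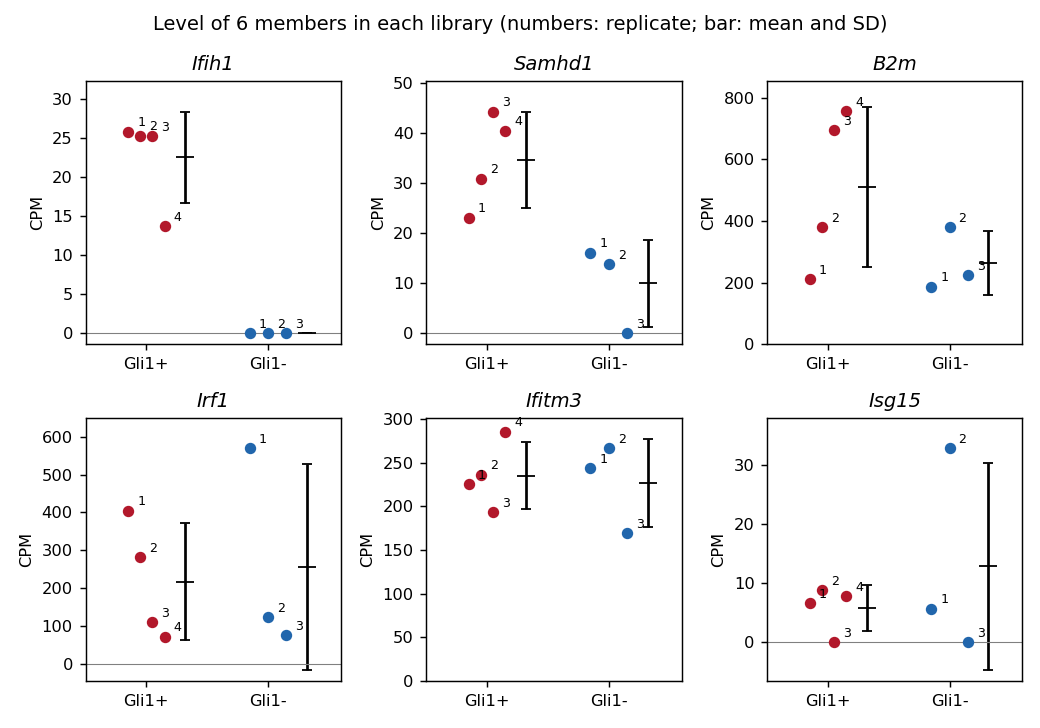
CPM of 6 members in each library (points, with the replicate number), with the mean and SD of each group beside them (n = 4 Gli1+ in red, n = 3 Gli1- in blue). Ifih1 sits between 13.7 and 25.7 CPM in Gli1+ libraries and at 0 in all Gli1- libraries, while Irf1, Ifitm3, B2m and Isg15 overlap between the groups.

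The adaptors downstream of the sensors were read in both groups. Mavs, the mitochondrial adaptor of MDA5 and RIG-I, was counted at 26.2, 18.6, 22.2 and 31.3 CPM in Gli1+ replicates 1 to 4, against 31.5, 0 and 60.7 CPM in Gli1- replicates 1 to 3. The 4 Gli1+ libraries lay within the range of the Gli1- libraries, whose spread was the wider (24.6 ± 5.48 CPM in Gli1+ and 30.7 ± 30.4 CPM in Gli1-, SD, n = 4 and 3). Tmem173, which encodes STING, the adaptor of cytosolic DNA sensing, stood at 5.19, 14.1, 8.28 and 26.3 CPM in Gli1+ replicates 1 to 4, against 14.7, 0 and 43.0 CPM in Gli1- replicates 1 to 3. For both genes the lowest and the highest value belonged to Gli1- libraries, and the log2 fold changes were -0.32 ± 1.93 for Mavs and -0.51 ± 2.26 for Tmem173 (SE).

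Among the transcription factors, Irf1 was the most abundant, and its level varied more within the groups than between them. Irf1, a transcription factor that is itself induced by interferon gamma and has the GAS core shown above, was counted at 405, 282, 111 and 71.7 CPM in Gli1+ replicates 1 to 4, against 569, 124 and 76.8 CPM in Gli1- replicates 1 to 3. The 3 highest values were those of Gli1+ replicates 1 and 2 and Gli1- replicate 1. These are also the 3 libraries with the lowest sum of the 47 markers of other cell types, which was 4138, 5669, 13246 and 13872 CPM in Gli1+ replicates 1 to 4, against 4145, 9485 and 5991 CPM in Gli1- replicates 1 to 3. The log2 fold change of Irf1 was -0.24 ± 0.82 (SE) in edgeR and 0.31 ± 0.45 with the log2 of that sum as a covariate. The sum rested largely on genes read in all 7 libraries, such as Gsn, Col3a1 and Notch3. Whether other cells have a part in the level of Irf1 was not tested.

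Irf3, the factor activated by phosphorylation after RNA or DNA sensing, fell into the same sets of libraries, with 60.9, 114, 30.5 and 14.4 CPM in Gli1+ replicates 1 to 4, against 112, 12.6 and 11.7 CPM in Gli1- replicates 1 to 3. Irf2, which competes with Irf1 at its sites, stood at 47.7, 36.5, 85.8 and 50.7 CPM in Gli1+ replicates 1 to 4, against 41.9, 24.3 and 121 CPM in Gli1- replicates 1 to 3. Both genes overlapped between the groups, and Irf2 was lowest and highest in Gli1- libraries. Irf7, the factor that amplifies interferon alpha transcription, was read in 3 of 4 Gli1+ libraries (8.26 to 12.9 CPM) and in 1 of 3 Gli1- libraries (19.6 CPM). Irf9 and Stat2 encode subunits of the factor that binds ISREs. Irf9 was read in every library, at 17.8 to 60.7 CPM in Gli1+ and 4.32 to 35.1 CPM in Gli1- MuSCs. Stat2 was counted at 62.0, 23.6, 19.2 and 8.66 CPM in Gli1+ replicates 1 to 4, against 23.5, 0 and 0 CPM in Gli1- replicates 1 to 3, with a log2 fold change of 1.85 ± 2.55 (SE). The Gli1- library with a Stat2 read lay within the Gli1+ range, and leaving it out placed the groups apart.

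The receptors were read at overlapping levels in both groups, and Ifngr2 was missing from some libraries of each. Ifnar1, a subunit of the type I interferon receptor, was counted at 86.1, 60.9, 71.5 and 46.2 CPM in Gli1+ replicates 1 to 4, against 83.5, 77.9 and 63.6 CPM in Gli1- replicates 1 to 3. Its coefficient of variation over the 7 libraries was 20.2%, and the log2 fold change was -0.18 ± 0.49 (SE). Ifngr1, the ligand-binding subunit of the interferon gamma receptor, stood at 53.5, 62.0, 103 and 96.5 CPM in Gli1+ replicates 1 to 4, against 36.4, 84.2 and 93.1 CPM in Gli1- replicates 1 to 3, and the groups overlapped. Ifnar2, the other type I subunit, was counted at 21.5 to 91.4 CPM in Gli1+ and 21.2 to 83.2 CPM in Gli1- MuSCs. Ifngr2, the signal-transducing subunit for interferon gamma, was read in 3 of 4 Gli1+ libraries (2.96 to 23.4 CPM) and in 1 of 3 Gli1- libraries (13.8 CPM). The summed level of the 4 receptor genes was 168 to 266 CPM in Gli1+ and 183 to 219 CPM in Gli1- MuSCs.

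Of the 18 induced effectors in the table, Ifitm3 was far the most abundant and the least variable. Ifitm3, a membrane protein that blocks virus entry through endosomes, was counted at 225, 236, 193 and 286 CPM in Gli1+ replicates 1 to 4, against 244, 267 and 169.5 CPM in Gli1- replicates 1 to 3. The means were 235 ± 38.2 CPM in Gli1+ and 227 ± 50.9 CPM in Gli1- MuSCs (SD, n = 4 and 3), with a coefficient of variation of 17.3% over the 7 libraries. Its log2 fold change was 0.053 ± 0.31 (SE), against -0.0038 with DESeq2 size factors and -0.079 with library totals, so its sign depended on the scaling. Ifitm3 shares 20.5% of its 31-base stretches with Ifitm1 and predicted genes, and reads from those stretches may have been assigned to any of them.

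Samhd1, a phosphohydrolase that depletes deoxynucleotides, was the other member whose groups did not overlap. It was counted at 23.1, 30.9, 44.3 and 40.5 CPM in Gli1+ replicates 1 to 4, against 16.1, 13.8 and 0 CPM in Gli1- replicates 1 to 3. The means were 34.7 ± 9.59 CPM in Gli1+ and 9.98 ± 8.72 CPM in Gli1- MuSCs (SD, n = 4 and 3). The log2 fold change was 1.80 ± 2.08 (SE), and the Benjamini-Hochberg adjusted p was 1.00 in edgeR, so the difference was within the spread that the fit allowed. It lies on chromosome 2 (157097533 to 157135265, GRCm38), and its RefSeq promoter window holds a GAS core at bases 235 to 227 before the start.

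Isg15, Rsad2, Usp18 and Oas1a were low or missing in most libraries. Isg15, a ubiquitin-like modifier with 3 ISRE cores in the promoter shown above, was counted at 6.58, 8.74, 0 and 7.76 CPM in Gli1+ replicates 1 to 4, against 5.68, 32.8 and 0 CPM in Gli1- replicates 1 to 3. The highest value was that of Gli1- replicate 2, the library with the fewest genes detected, and each group held a library with no read. Rsad2, encoding viperin, was read in Gli1+ replicate 3 alone (169 reads, 15.4 CPM). Usp18, the protease that removes Isg15 from its targets, was read in Gli1+ replicate 2 alone (37 reads, 2.69 CPM). Oas1a, a synthase of the second messenger that activates RNase L, was read in Gli1- replicate 2 alone (724 reads, 49.7 CPM), and 68.8% of its 31-base stretches also occur in Oas1g, Oas1b or Oas1h. These 3 genes had reads in 1 library each and were not tested.

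The Ifit genes, some of whose proteins bind foreign RNA, differed among themselves. Ifit2 was counted at 14.7, 53.7, 47.6 and 12.6 CPM in Gli1+ replicates 1 to 4, against 23.9, 0 and 20.7 CPM in Gli1- replicates 1 to 3. Ifit1 was read in Gli1+ replicates 1 and 4 (3.98 and 5.74 CPM) and in Gli1- replicate 1 (3.79 CPM). Ifit3 stood at 2.41 to 20.1 CPM in Gli1+ MuSCs, against 0.216, 0 and 14.9 CPM in Gli1- replicates 1 to 3, and 61.8% of its 31-base stretches are shared with Ifit3b. All 3 overlapped between the groups, with log2 fold changes of 0.94 for Ifit1, 1.11 for Ifit2 and 1.27 for Ifit3 and SEs above 2.

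The effectors that act on double-stranded RNA or on the sensors were missing from some libraries of one or both groups, and none passed a test. Eif2ak2, encoding the RNA-activated kinase PKR, was counted at 17.3, 24.8, 20.8 and 0 CPM in Gli1+ replicates 1 to 4, against 9.95, 0 and 0 CPM in Gli1- replicates 1 to 3. Trim25, a ubiquitin ligase that activates RIG-I, stood at 18.5 to 40.0 CPM in the 4 Gli1+ libraries, against 29.1, 0 and 0 CPM in Gli1- replicates 1 to 3. The single Gli1- library with reads was within the range of the Gli1+ libraries for Trim25, and the log2 fold changes were 2.24 ± 3.15 for Eif2ak2 and 1.42 ± 2.51 for Trim25 (SE). Without Gli1- replicate 1, in which both had reads, the unadjusted edgeR p was under 0.05 for 5 members, which were Ifih1, Ddx58, Stat2, Eif2ak2 and Trim25, beside 11.9% of all genes in that fit. Adar, the enzyme that edits adenosine to inosine in double-stranded RNA, was read in Gli1+ replicates 2 and 4 (15.4 and 14.8 CPM) and in Gli1- replicate 3 (13.3 CPM). Adar shares 1365 exonic bases with Chrnb2 on the other strand. Smaller exonic overlaps with a neighbour, of 45 to 315 bases, were annotated for Irf1, Irf3, Irf7, Irf9, Ifnar2, Ifi35, Eif2ak2, Parp14, Dhx58 and Usp18, and reads from these stretches may belong to either gene.

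The other effectors were read at low levels in both groups. Parp14, a mono-ADP-ribosyltransferase, was counted at 15.5, 32.3, 29.2 and 3.53 CPM in Gli1+ replicates 1 to 4, against 37.1, 20.5 and 32.7 CPM in Gli1- replicates 1 to 3. It had reads in every library, and the log2 fold change was -0.58 ± 1.67 (SE). Bst2, encoding tetherin, which holds budding virions at the cell surface, stood at 6.19 to 21.5 CPM in Gli1+ and 0 to 23.3 CPM in Gli1- MuSCs. Ifi35, an interferon-induced leucine zipper protein, stood at 11.6 to 22.6 CPM and 0 to 26.8 CPM, and Oasl2, a member of the oligoadenylate synthase family, at 0 to 19.1 CPM and 0 to 9.90 CPM. Parp9 and Dtx3l, whose proteins form one complex, start 681 bases apart on opposite strands of chromosome 16 and overlap by 458 exonic bases. Both were read in 4 libraries, 1 of the pair in 2 and neither in 1. Parp9 was at 0 to 18.9 CPM in Gli1+ and 0 to 17.7 CPM in Gli1- MuSCs, and Dtx3l at 8.76 to 21.6 CPM and 0 to 19.9 CPM. The effectors without Ifitm3 summed to 191 to 294 CPM in Gli1+ and 117 to 216 CPM in Gli1- MuSCs.

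**Figure D4:**
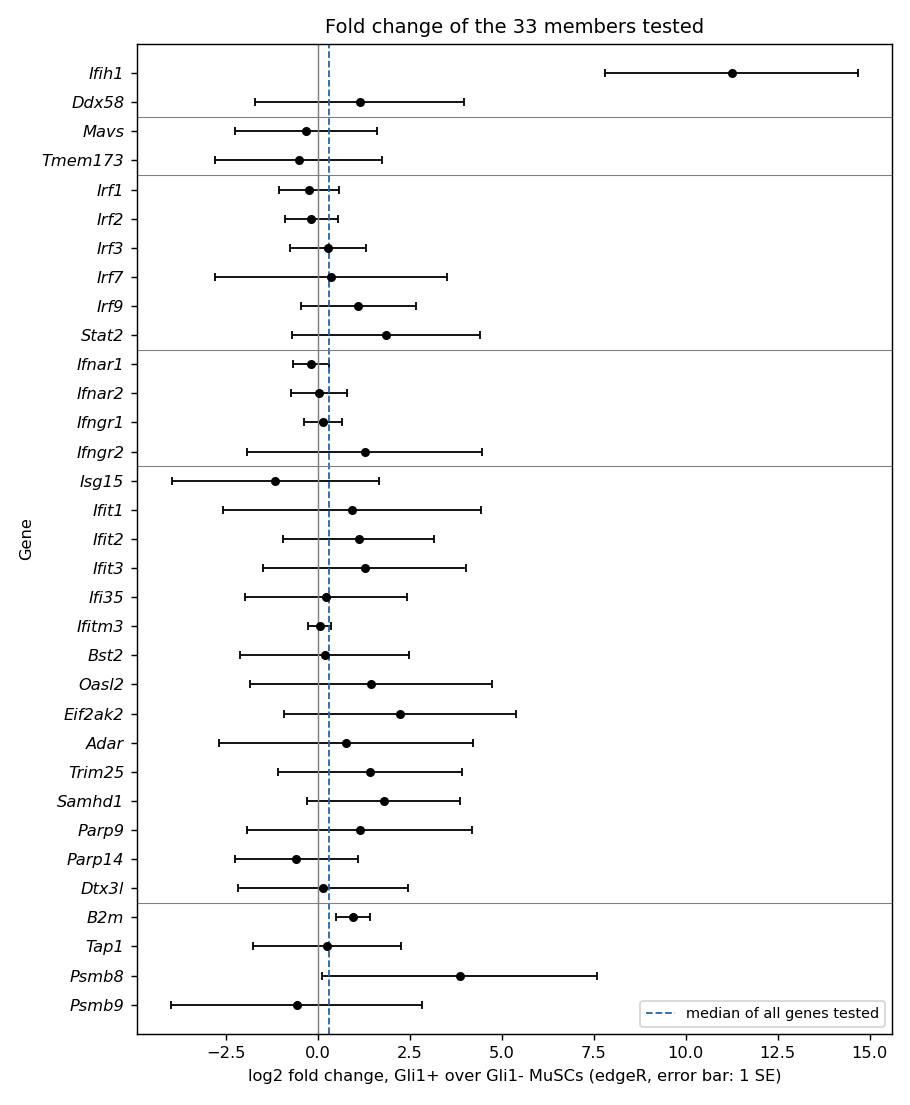
Log2 fold change of Gli1+ over Gli1- MuSCs for the 33 tested members, by role from the sensors at the top to antigen presentation at the bottom. Error bars are 1 SE derived from the edgeR test. The dashed line is the median of all genes tested, 0.30, and Ifih1 (11.24, a fitted value with no read in Gli1- MuSCs) lies to the right of the other 32.

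B2m, the light chain shared by all class I molecules, was the most abundant of the 37 members in the table per length and, of the members read in all 7 libraries, had the lowest p in edgeR without passing the test. It was counted at 210.2, 379.9, 695 and 757 CPM in Gli1+ replicates 1 to 4, against 187, 379.7 and 224 CPM in Gli1- replicates 1 to 3. Gli1+ replicates 3 and 4 were above all Gli1- libraries, while Gli1+ replicate 1 lay between them and Gli1+ replicate 2 was level with the highest. The log2 fold change was 0.95 ± 0.45 (SE), with a Benjamini-Hochberg adjusted p of 1.00 in edgeR. Its p before adjustment was under 0.05 without Gli1+ replicate 1 (log2 fold change 1.21) and without Gli1- replicate 2 (1.31), and above it with all 7 libraries. Gli1+ replicates 3 and 4 were also the libraries with the highest sums of markers of other cell types, 13246 and 13872 CPM, against 4145 to 9485 CPM in Gli1- MuSCs. With the log2 of that sum as a covariate, the log2 fold change of B2m was 0.49 ± 0.23 (SE, edgeR). The sum rested largely on genes read in all 7 libraries, such as Gsn, Col3a1 and Notch3. The covariate was added after the data were seen, and the part of other cells in the level of B2m was not tested.

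**Figure D5:**
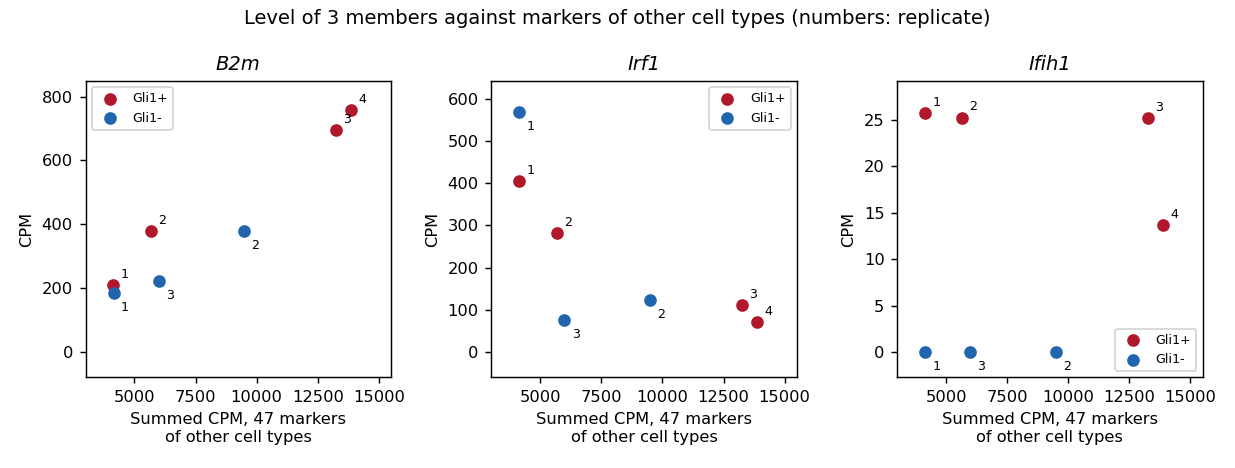
CPM of B2m, Irf1 and Ifih1 in each library against the summed CPM of 47 markers of macrophages and blood, endothelium, fibroblasts and pericytes (red Gli1+, blue Gli1-, with replicate numbers). B2m is highest (695 and 757 CPM) at the highest marker sums, the 3 highest values of Irf1 are at the 3 lowest sums, and Ifih1 is at 0 in all Gli1- libraries at every marker sum.

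The genes that prepare peptides for class I molecules lie together on chromosome 17. Tap1, a subunit of the peptide transporter, was counted at 19.6, 23.2, 40.4 and 25.6 CPM in Gli1+ replicates 1 to 4, against 12.7, 55.4 and 0 CPM in Gli1- replicates 1 to 3. Its lowest and highest values were both in Gli1- libraries. Psmb8, an immunoproteasome subunit, was read in Gli1+ replicates 3 and 4 (9.55 and 50.6 CPM) and in Gli1- replicate 1 (3.08 CPM), and its log2 fold change was 3.86 ± 3.73 (SE). With the marker sum as a covariate it was -5.60, a fitted value for a gene with reads in only 3 libraries. The cause of this change of sign was not tested. Psmb8 shares 498 exonic bases with a gene on the other strand. Psmb9, another subunit of the same proteasome, was read in Gli1+ replicate 1 (18.2 CPM) and in Gli1- replicates 1 and 3 (8.82 and 11.4 CPM). Psmb9 and Tap1 start 211 bases apart on opposite strands and have 212 exonic bases in common. Both were read in 2 libraries, and 1 of the pair in the other 5.

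Per kilobase of exonic length, over all 7 libraries, B2m (471 CPM per kb) and Ifitm3 (341 CPM per kb) stood above the other members. Irf1 followed with 58.9 CPM per kb, then Ifngr1 (26.5), Ifnar2 (17.0), Bst2 (16.3) and Irf3 (14.8). Ranges over the libraries overlapped between neighbours in this order, except that Ifitm3 was above Irf1 in every library. The coefficient of variation of these 7 genes ran from 17.3% for Ifitm3 to 89.9% for Irf3. Ifih1 had 1.57 CPM per kb, so its difference between the groups was one at a low level.

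The rest of the pathway was examined with 126 other genes chosen by function. Of these, 105 were in the table and 86 were tested. None was called at an adjusted p under 0.05 in edgeR, DESeq2 or limma-voom. The log2 fold change was above 0 for 55 and below 0 for 31, with a median of 0.33, where 65.3% of all genes were above 0. Before adjustment, edgeR gave p under 0.05 for 1 with Gli1+ higher and for 0 with Gli1+ lower, beside 1.53% and 0.611% of all genes. This was Ifi47, an interferon-induced GTPase, counted at 8.15, 0, 19.0 and 11.6 CPM in Gli1+ replicates 1 to 4, against no read in any Gli1- library. With the same allowance for counting error the ratio for Ifi47 was 52.0. It is not a lower bound either, as Gli1+ replicate 2 also held no read of this gene. The Benjamini-Hochberg adjusted p of Ifi47 was 1.00 in edgeR. Of the 9 interferon genes listed, none was analysed here.

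Among the other sensors, Zc3hav1, which binds viral RNA rich in CpG, was counted at 51.3 to 111 CPM in Gli1+ and 64.1 to 160.4 CPM in Gli1- MuSCs. Prkra, the protein activator of PKR, stood at 39.5 to 58.0 CPM in Gli1+ and 0 to 32.7 CPM in Gli1- MuSCs, without overlap, and Tlr3, the endosomal sensor of double-stranded RNA, at 0 to 10.5 CPM and 0 to 13.8 CPM. Among the transducers of sensing, Tnfaip3, an inhibitor of NF-kB signaling, was counted at 448, 464, 71.2 and 72.0 CPM in Gli1+ replicates 1 to 4, against 705, 74.4 and 50.5 CPM in Gli1- replicates 1 to 3. These are the same high libraries as for Irf1. Tax1bp1, its partner, was at 109.7 to 182 CPM in Gli1+ and 109 to 245 CPM in Gli1- MuSCs, and Myd88, the adaptor of most Toll-like receptors, at 69.9 to 146 CPM and 130.5 to 228 CPM.

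Downstream of the receptors, Socs3, a feedback inhibitor of cytokine receptors, stood at 604 to 2008 CPM in Gli1+ and 702 to 2611 CPM in Gli1- MuSCs. Jak1, the kinase bound to both interferon receptors, was at 143 to 184 CPM in Gli1+ and 138 to 213 CPM in Gli1- MuSCs, and Ptpn11, a phosphatase in the same pathways, at 53.2 to 152 CPM and 90.6 to 149 CPM. Of the induced genes, Ifitm2 stood at 72.6 to 303 CPM in Gli1+ and 102 to 219 CPM in Gli1- MuSCs, Ly6e at 50.1 to 235 CPM and 51.2 to 147 CPM, and Ifi27 at 64.5 to 164 CPM and 41.6 to 125 CPM. In antigen presentation, the chaperone Calr stood at 344 to 669 CPM in Gli1+ and 429 to 781 CPM in Gli1- MuSCs, the class I heavy chain H2-D1 at 374 to 741 CPM and 312 to 562 CPM, and the disulfide isomerase Pdia3 at 379 to 630.0 CPM and 314 to 402 CPM. The groups overlapped for all of these. Of the 86 other pathway genes tested, 6 had every Gli1+ library above every Gli1- library and 1, Irgm2, had every Gli1+ library below, beside 2.87% and 0.934% of all genes.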

How the data were processed

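RNA was extracted from sorted MuSCs and libraries were made from 1 ng of total RNA. The deposited table holds the authors' raw counts of reads per gene. The methods of the study name STAR, GRCm38 and tximport, whereas CASAVA and HISAT2 2.0.5 are given in the processing notes of the submitters. The sources used here do not state if counting was stranded. Of the 13280 rows, 13240 had a symbol and 40 did not, 445 had no read, and 14 deposited columns of normalized values were not used. The authors' own log2 fold changes and p-values were not used.

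Groups came from the sample labels. Counts were fitted in R 4.3.3 with edgeR 4.0.16 (TMM, robust quasi-likelihood test, two-sided) on the 11134 genes that reached 5 reads in 2 or more libraries, with Benjamini-Hochberg adjustment over all of them. The biological coefficient of variation was 1.76. CPM were computed on the TMM-scaled library sizes, and where all libraries of a group were at 0 the fold was taken over 3 reads per library, a limit for counting error only. Fold changes given with ± are log2 values with a standard error derived from the edgeR test. It is the absolute log2 fold change divided by the square root of the F statistic. DESeq2 1.42.0, limma 3.58.1 (voom with quality weights), other scalings and filters, a fit that was not robust, a replicate block and left-out libraries were alternatives, and a covariate of other cell type markers was added after the data were seen. The script for the fits was tested on simulated data. Coordinates, exon overlaps and shared 31-base stretches came from GENCODE for GRCm38, and promoters from RefSeq (GRCm38.p6).

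Members and gene lists were chosen with earlier results of these data known. Values in every library are given for members with an unadjusted p under 0.05, with groups that did not overlap or with no read in one group, for the sensors and adaptors, and for the 2 members with the highest mean of each role, and for further members chosen after their values were seen. Of the other pathway genes, those with an unadjusted p under 0.05 and the 3 with the highest mean of each list are named, and any other was chosen after its values were seen.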

Additional observations from a re-analysis of the deposited data

Results flagged for a closer look

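In the 4 Gli1+ libraries, each tested member and the summed levels of the role groups were checked for a library far from the other 3, and 4 of 40 checks found one. The rate of about 1 in 20 holds for normal, independent values. Levels with zeros and sums over the same members are not such values, so no excess can be read from the count. Ifih1 was lowest in Gli1+ replicate 4, at 13.7 CPM against 25.2 to 25.7 CPM in the other 3. Parp9 had 0 reads in Gli1+ replicate 3, against 16.1 to 18.9 CPM in the other 3. Psmb9 stood at 18.2 CPM in Gli1+ replicate 1 and at 0 in the other 3. The summed level of the adaptors Mavs and Tmem173 was highest in Gli1+ replicate 4, at 57.6 CPM.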

How the results depend on the processing

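Of 561 fold changes of the 33 tested members under 17 alternatives, 500 kept their direction and their side of the threshold, 60 changed sign, and Ifih1 passed it with DESeq2 (log2 fold change 10.91). No sign changed for 11 members. DESeq2 called 1 member and 66 genes in all. At an unadjusted p under 0.05 the count of members was 1 in the fit reported. It was 3 with no filter on low counts (1.71% of all genes) and 3 with limma-voom (7.28%). With each library left out it was 1 to 5, beside 0.905% to 11.9% of all genes. The median over the members was 1.71 with limma-voom, 0.62 with the cell type marker covariate and 0.31 to 0.83 with each library left out. In those left-out fits, 20 to 25 members were above 0, beside 58.6% to 70.1% of all genes. The groups of 2 to 6 members did not overlap (6 without Gli1- replicate 1), beside 6.15% to 17% of all genes. Adjusted calls were 0 to 2 genes in all (2 without Gli1- replicate 1, and 1 without Gli1- replicate 2). Without Gli1- replicates 2 and 3 the lone Gli1- library was assumed to vary like the others, the median was -0.13 over the members and -0.04 over all genes, 14 members were above 0 (47.6% of all genes), and the groups of 11 did not overlap (27.2% of all genes). Median fold changes of all genes were 0.27 with DESeq2 size factors and 0.23 with library totals.

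Deviations of same-numbered libraries had correlations of 0.22, -0.10 and 0.07 for numbers 1, 2 and 3, against -0.22 to 0.14 for other pairs. These few weak correlations cannot decide whether the replicate numbers pair libraries. With the replicate block, the count of members at an unadjusted p under 0.05 was 0, beside 0.701% of all genes, and the median over the members was 1.18. The signs that changed in that fit were those of Mavs (0.77), Irf1 (0.41), Irf2 (0.094), Ifnar2 (-0.17) and Ifitm3 (-0.033).

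Other sign changes came without Gli1- replicates 2 and 3, for Ddx58 (-0.44), Irf2 (0.40), Irf3 (-1.02), Irf7 (-1.22), Ifnar2 (-0.54), Ifngr2 (-0.31), Isg15 (0.022), Ifit1 (-0.64), Ifi35 (-0.11), Ifitm3 (-0.051), Bst2 (-0.59), Oasl2 (-0.14), Trim25 (-0.16), Parp9 (-0.44) and Dtx3l (-0.43). limma-voom gave them for Mavs (1.21), Tmem173 (0.70), Irf1 (0.43), Ifnar2 (-0.46) and Isg15 (2.34). The marker covariate gave them for Irf1 (0.31), Ifnar2 (-0.28), Ifngr1 (-0.095) and Psmb8 (-5.60), library totals for Ifnar2 (-0.034), Ifngr1 (-0.010) and Ifitm3 (-0.079), and DESeq2 or its size factors for Ifitm3 (-0.0038). With each library left out, the fold changes that changed sign ran -0.91 to 0.64 for Mavs, -1.10 to 0.87 for Tmem173, -0.73 to 1.12 for Irf1, -0.56 to 0.74 for Irf2, -0.36 to 2.19 for Irf3, -0.23 to 9.74 for Irf7, -0.35 to 0.44 for Ifnar2, -0.18 to 0.39 for Ifngr1, -1.74 to 1.02 for Isg15, -0.36 to 0.89 for Ifi35, -0.12 to 0.19 for Ifitm3, -0.40 to 0.83 for Bst2, -0.44 to 0.56 for Dtx3l, -0.32 to 2.09 for Tap1 and -9.55 to 0.041 for Psmb9. The cause of these changes was not tested. Standard errors of the members' fold changes ran from 0.31 (Ifitm3) to 3.73 (Psmb8), which limits the size of a difference that the test could call.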

Other observations

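Of the immunity-related GTPases, which interferon gamma induces and which act on vacuoles of intracellular parasites, 3 had groups that did not overlap. They are named after their values were seen. Over all genes tested, the groups did not overlap for 2.87% with Gli1+ higher and for 0.934% with Gli1+ lower. Irgm1 was counted at 34.3, 20.2, 59.1 and 57.6 CPM in Gli1+ replicates 1 to 4, against 17.1, 0 and 0 CPM in Gli1- replicates 1 to 3, with a log2 fold change of 2.91 ± 2.42 (SE). Igtp stood at 15.2, 29.9, 79.1 and 18.4 CPM in Gli1+ replicates 1 to 4, against 10.4, 0 and 0 CPM in Gli1- replicates 1 to 3. For both, every Gli1+ library was above every Gli1- library. Irgm2 had the opposite order, with 26.1, 11.8, 22.5 and 24.1 CPM in Gli1+ replicates 1 to 4, against 31.1, 44.7 and 34.2 CPM in Gli1- replicates 1 to 3. Its log2 fold change was -0.80 ± 1.51 (SE). None of the 3 passed a test. Iigp1, Tgtp1 and Tgtp2 overlapped between the groups, at 0 to 141, 0 to 17.3 and 0 to 67.9 CPM in Gli1+ MuSCs, against 0 to 32.7, 0 to 27.3 and 0 to 17.2 CPM in Gli1- MuSCs. Ifi47, the interferon-induced GTPase described above, overlapped as well, with no read in Gli1+ replicate 2 or in any Gli1- library. Igtp and Irgm2 share 162 exonic bases.

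Psme1, a subunit of the proteasome activator that interferon gamma induces, was counted at 76.9, 55.6, 66.6 and 128 CPM in Gli1+ replicates 1 to 4, against 45.3, 40.1 and 48.1 CPM in Gli1- replicates 1 to 3. It was read in all 7 libraries without overlap between the groups, and its log2 fold change was 0.88 ± 0.55 (SE, Benjamini-Hochberg adjusted p of 1.00 in edgeR). Il10rb, a receptor subunit shared by interferon lambda and the interleukin 10 family, stood at 12.3, 23.7, 13.3 and 37.8 CPM in Gli1+ replicates 1 to 4, against 9.47, 0 and 0 CPM in Gli1- replicates 1 to 3.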
